A study of Mus musculus with 12 samples.

Results

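A set of 8 genes, grouped as antiviral nucleases and RNA-editing or decay factors, was followed across 4 groups of fibroblasts. These cells of connective tissue were taken from mouse embryos and grown in culture. The genes are Isg20, Samhd1, Zc3hav1, Adar, Apobec3, Pnpt1, Tdrd7 and Xrn1, taken by name, with every array probe annotated to these symbols. Not all of their products cut, edit or degrade nucleic acids themselves. The 8 genes make up 8 of 12128 tested genes, and their 19 probes are 19 of 45281 on the array. The groups were Sirt2-/- cells given mouse interferon beta (IFNβ) at 2500 IU/ml for 4 h, untreated Sirt2-/- cells, Sirt2+/+ cells given the same treatment, and untreated Sirt2+/+ cells, with 3 single-colour Illumina bead arrays in each. Sirt2 encodes a protein deacetylase. The sources used here do not say how the gene was disrupted, from how many embryos the cells came, or whether a group's 3 samples were cultured separately. The p-values therefore measure only the spread between these samples, which may be technical. Values are background-corrected, quantile-normalized log2 intensities, a difference of 1 is a 2-fold change, and a gene was called at an adjusted p under 0.05 over all 12128 genes. Each array averages a whole culture, so fewer responding cells and less RNA per cell cannot be told apart.

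Type I interferons such as IFNβ bind a receptor found on nearly all cells and activate transcription factors that bind the interferon-stimulated response element (ISRE) in promoters. Among the genes switched on in this way are enzymes that act on viral nucleic acids directly, by hydrolysing RNA, by deaminating its bases, by marking it for the cellular decay machinery or by removing the nucleotides needed to copy it. Several of these enzymes also process cellular RNA in uninfected cells.

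Before the results, 2 libraries need to be named. Untreated knockout arrays 2 and 3 carried high levels of interferon-induced transcripts. The mean log2 intensity of 10 interferon-state markers was 12.71 to 13.01 in treated knockout arrays. In untreated knockout arrays 1, 2 and 3 it was 5.75, 9.68 and 10.50. It was 12.81 to 12.91 in treated wild-type arrays and 4.91 to 5.18 in untreated ones. The same arrays 2 and 3 also held transcripts of 6 genes that mark the wild-type cells, chosen from an earlier analysis of these data, at a mean of 7.26 and 7.22. Their mean was 4.75 in untreated knockout array 1, 4.72 to 5.68 in treated knockout arrays and 11.18 to 11.39 in wild-type arrays. Treated wild-type array 2 in turn held 3 markers of the knockout cells at a mean of 6.19, against 4.48 and 4.46 in the other treated wild-type arrays. Untreated wild-type array 2 held them at 5.10, with 2 of 3 detected, against 4.50 and 4.44 in the other untreated wild-type arrays, with 0 detected. Member responses that rest on untreated knockout arrays are given with all 3 of them and without arrays 2 and 3. Without them 1 array stands for the group, and its spread is assumed to be that of the other groups.

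Sirt2 itself was lower in knockout cells, at a log2 difference of -2.86 ± 0.18 under interferon (SE, adjusted p = 6.62e-08) and of -2.41 ± 0.18 without it (adjusted p = 2.41e-07), and the sources used here do not say whether its probe lies in the disrupted part. Between 17091 and 18155 probes were detected per array, and arrays of a group correlated across probes at 0.987 to 0.996. Of 9 fibroblast markers, 8 or 9 were detected in knockout arrays and all 9 in wild-type arrays. Their summed linear level ranged over 14090 to 14470 in treated knockout, 15920 to 17150 in untreated knockout, 26400 to 26880 in treated wild-type and 28180 to 34790 in untreated wild-type arrays. Of 7 leukocyte markers on the array, 5 were detected on no array, Ptprc among them. Cd14 was detected on all arrays, and the summed level of the 7 was 292.8 to 333.7 in knockout arrays and 543.6 to 642.7 in wild-type arrays. The summed level of 5 epithelial markers was 127 to 158.8 in knockout and 561.6 to 861.3 in wild-type arrays, where Krt18 was detected throughout. Epcam was detected on no array. The part of these differences in the genotype comparisons below was not tested.

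Because interferon acts through short promoter elements, the windows from 250 bases before to 50 bases after each annotated start were searched on both strands, with RefSeq sequence of build GRCm38.p6. The table held 15 windows for the 8 genes. The ISRE was written as GAAANNGAAA. An ISRE match lay in windows of 2 of the 8 genes, Apobec3 and Tdrd7, while 3.44% of 32851 windows and 3.99% of 27025 genes had one. A form with 1 base as the spacer, GAAANGAAA, was added after the members' sequences had been read. It lay in windows of Adar and Pnpt1, against 3.17% of windows and 3.70% of genes. Isg20, Samhd1, Zc3hav1 and Xrn1 had a match to neither form. The 4 stretches with an ISRE-type match are shown so that the element can be read in Apobec3, whose response differed most between the genotypes in the results below, beside Tdrd7, Pnpt1 and Adar. Capitals mark the match, and the sequence runs 5′ to 3′ on the gene's strand, which is the plus strand for all 4.
Apobec3: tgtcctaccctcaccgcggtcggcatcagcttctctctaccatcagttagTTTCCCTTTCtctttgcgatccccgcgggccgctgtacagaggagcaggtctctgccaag
Tdrd7: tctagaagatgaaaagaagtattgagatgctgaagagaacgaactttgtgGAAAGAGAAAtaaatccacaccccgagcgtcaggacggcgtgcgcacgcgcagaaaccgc
Pnpt1: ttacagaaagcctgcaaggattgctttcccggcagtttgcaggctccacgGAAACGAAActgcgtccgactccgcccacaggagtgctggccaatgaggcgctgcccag
Adar: ccttttcaagGAAACGAAAgtgaactctgg
The Apobec3 stretch is chr15:79892218-79892327, and its match, on the opposite strand, spans bases -140 to -131 from an annotated start. The Tdrd7 stretch is chr4:45972056-45972165 with the match at -191 to -182. The Pnpt1 stretch is chr11:29130628-29130736 with the match at -66 to -58. The Adar stretch is chr3:89730736-89730765, with the match at 29 to 37 after the third of 3 annotated starts. A match is a run of letters in a window and was not tested as a binding site.

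After IFNβ, 7 of the 8 genes were higher in knockout cells and 6 of the 8 in wild-type cells, and none was lower. The median log2 change of the 8 was 1.67 in knockout cells and 1.84 in wild-type cells, beside -0.05 and -0.06 over all genes tested. Over all genes, 4.30% were called higher and 2.31% lower in knockout cells, and 6.27% higher and 7.57% lower in wild-type cells. The genes were grouped because interferon is known to induce them, so a share above this background describes the list and is no independent evidence. Of the 15 kept probes, 13 were called higher in knockout cells and 12 in wild-type cells, where 4.02% and 5.73% of all 17837 kept probes were higher, and 1.93% and 6.18% lower. A probe was kept if it was detected on all 3 arrays of a group. The dimmest Adar probe, the Xrn1 probe and the dimmer kept probe of Zc3hav1 were kept only through treated groups. Their tests against untreated arrays are not independent of that filter. With untreated knockout arrays 2 and 3 left out, the knockout count was again 7, the knockout median was 2.03, and all 8 were called higher in wild-type cells, where Apobec3 (adjusted p = 0.0485) and Xrn1 (0.0481) then passed narrowly. Over all genes 3.37% were then higher in knockout and 5.97% in wild-type cells. The other 4 of the 19 probes, 2 of Zc3hav1 and 1 each of Apobec3 and Pnpt1, were detected on no array.

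**Figure D1:**
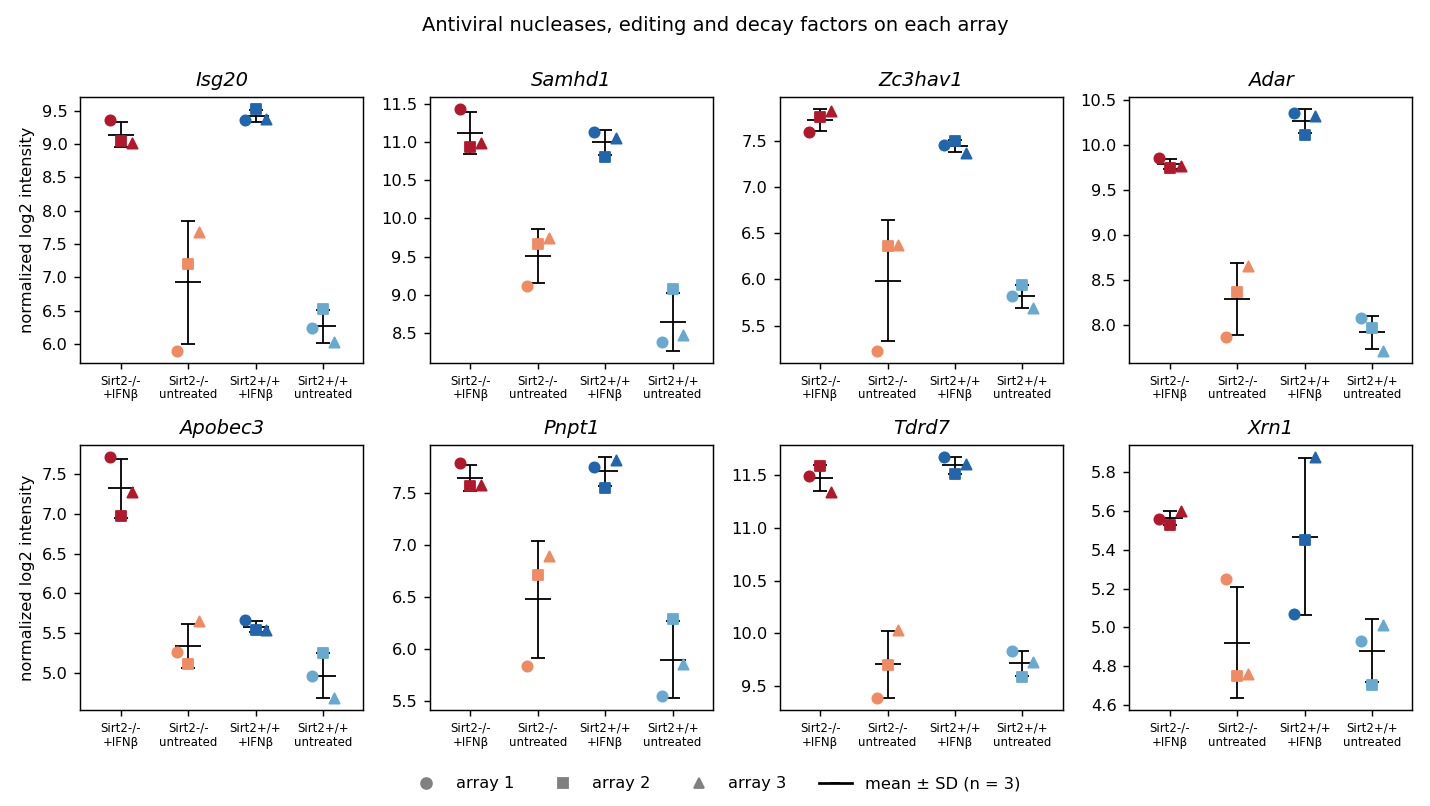
Normalized log2 intensity (vertical axes, each gene on its own scale) of the 8 genes on every array, by group (horizontal axes), with the group mean and SD of 3 arrays. In untreated knockout cells array 1 (circle) lies below arrays 2 and 3 for Isg20, Samhd1, Zc3hav1, Adar, Pnpt1 and Tdrd7, and above them for Xrn1.

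The exonucleases that act on RNA come first. Isg20 encodes an exonuclease that digests single-stranded RNA from its 3′ end. Its log2 intensity on arrays 1, 2 and 3 was 9.36, 9.05 and 9.01 in treated knockout cells and 5.90, 7.20 and 7.68 in untreated knockout cells. In treated wild-type cells it was 9.36, 9.52 and 9.38, and in untreated ones 6.24, 6.52 and 6.03. Treated and untreated arrays did not overlap in either genotype, and untreated knockout array 1 was the lowest of all 12. Isg20 rose by 2.22 ± 0.32 in knockout cells (SE, n = 3 per group, adjusted p = 0.000669) and by 3.16 ± 0.32 in wild-type cells (adjusted p = 1.69e-05). The gap between these responses, -0.94 ± 0.46, did not pass the test (adjusted p = 0.693). Without untreated knockout arrays 2 and 3 the knockout response was 3.24 and the gap 0.09. Leaving out array 1 of that group instead gave a gap of -1.45 (adjusted p = 0.00492). Over the 19 alternatives tried, the adjusted p of this gap ranged over 0.00492 to 1. The size of the gap thus turned on which untreated knockout arrays were counted.

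Pnpt1 encodes polynucleotide phosphorylase, a mitochondrial enzyme that degrades RNA from the 3′ end. It read 7.79, 7.57 and 7.58 in treated knockout cells and 5.84, 6.71 and 6.89 in untreated ones. In wild-type cells it read 7.75, 7.55 and 7.82 with IFNβ and 5.55, 6.29 and 5.86 without. Treated and untreated arrays were apart in both genotypes, and the treated groups of the 2 genotypes overlapped. Pnpt1 rose by 1.17 ± 0.24 in knockout cells (adjusted p = 0.0082) and by 1.81 ± 0.24 in wild-type cells (adjusted p = 0.000164). The knockout response was 1.80 without untreated knockout arrays 2 and 3. Under interferon the genotypes differed by -0.06, with a 95% interval of -0.57 to 0.45.

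Xrn1 encodes the main cytoplasmic enzyme that degrades decapped RNA from the 5′ end. Its probe was close to background: it was detected on 1 of 3 untreated knockout arrays and 1 of 3 untreated wild-type arrays, and on all treated arrays. The probe was thus kept only through the treated groups, and its interferon tests are not independent of that filter. The log2 intensity was 5.56, 5.53 and 5.60 in treated knockout cells and 5.25, 4.75 and 4.76 in untreated ones. In wild-type cells it was 5.07, 5.45 and 5.88 with IFNβ and 4.93, 4.70 and 5.01 without. Every treated array stood above every untreated array of its genotype. The differences were 0.64 ± 0.19 in knockout cells (adjusted p = 0.0619) and 0.58 ± 0.19 in wild-type cells (adjusted p = 0.0558), and neither passed. Over 20 alternatives the adjusted p ranged over 0.0221 to 0.601 in knockout cells and 0.0152 to 0.207 in wild-type cells. The call passed in knockout cells without untreated knockout array 1, treated wild-type array 1 or treated wild-type array 3, and in wild-type cells without either of the first 2 of these arrays or without untreated knockout arrays 2 and 3 together (adjusted p = 0.0481). Xrn1 is the 1 member whose untreated knockout arrays 2 and 3 lay below array 1, and without them its knockout difference was 0.31.

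Zc3hav1 encodes ZAP, a zinc-finger protein that binds viral RNA rich in CpG and brings it to the decay machinery. The brighter of its 2 kept probes read 7.59, 7.75 and 7.82 in treated knockout cells and 5.23, 6.36 and 6.37 in untreated ones. In wild-type cells the values were 7.45, 7.50 and 7.37 with IFNβ and 5.82, 5.94 and 5.69 without. All 6 treated arrays stood above all 6 untreated ones, and the treated knockout arrays stood just above the treated wild-type ones. The rise was 1.73 ± 0.23 in knockout cells (adjusted p = 0.000335) and 1.62 ± 0.23 in wild-type cells (adjusted p = 0.000354). The gap between the responses was 0.11 ± 0.33, with a 95% interval of -0.60 to 0.82. Leaving out untreated knockout arrays 2 and 3 gave a knockout rise of 2.49 and a gap of 0.87 (adjusted p = 0.13). The second kept probe passed in neither genotype. Its difference was 0.46 in knockout cells (adjusted p = 0.366), and 0.58 without untreated knockout arrays 2 and 3. In wild-type cells treated and untreated arrays overlapped (adjusted p = 0.127). Against the dimmest detected signal the wild-type ratio was 1.29-fold, which is no confidence limit. That probe was detected on no untreated wild-type array and on 2 of 3 treated ones, so the call for Zc3hav1 rests on 1 probe.

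Tdrd7 encodes a Tudor-domain protein of cytoplasmic RNA granules. It read 11.49, 11.59 and 11.34 in treated knockout cells and 9.39, 9.70 and 10.03 in untreated ones. Wild-type cells gave 11.67, 11.51 and 11.60 with IFNβ and 9.83, 9.59 and 9.73 without. The treated arrays of both genotypes lay together, as did the untreated arrays. Tdrd7 rose by 1.76 ± 0.14 in knockout cells (adjusted p = 1.04e-05) and by 1.88 ± 0.14 in wild-type cells (adjusted p = 1.6e-06). The knockout rise was 2.08, and the gap 0.20, without untreated knockout arrays 2 and 3. With all arrays the gap of -0.11 ± 0.20 had a 95% interval of -0.55 to 0.32, so a difference in response as large as that of Apobec3 below lies outside it.

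Samhd1 encodes an enzyme that hydrolyses deoxynucleoside triphosphates (dNTPs), the building blocks of DNA. The brightest of its 3 kept probes read 11.43, 10.93 and 10.99 in treated knockout cells and 9.11, 9.67 and 9.75 in untreated ones. In wild-type cells it read 11.13, 10.81 and 11.05 with IFNβ and 8.38, 9.08 and 8.48 without. All untreated knockout arrays stood above all untreated wild-type arrays, array 1 by the narrowest margin, and the treated groups overlapped. The rise was 1.61 ± 0.21 in knockout cells (adjusted p = 0.000271) and 2.35 ± 0.21 in wild-type cells (adjusted p = 5.3e-06). The gap between the responses was -0.74 ± 0.30 (adjusted p = 0.54), and -0.34 without untreated knockout arrays 2 and 3, where the knockout rise was 2.01. Both other probes rose too, by 1.33 and 1.45 in knockout cells and by 1.92 and 1.29 in wild-type cells, with gaps of -0.58 and 0.16. Without untreated knockout arrays 2 and 3 their knockout rises were 1.64 and 1.45, and their gaps -0.27 and 0.16. Both lay near background in untreated wild-type cells, at means of 5.09 and 5.08, which limits these sizes. Under interferon the second of them, ILMN_1232707, was higher in knockout than in wild-type cells by 0.51 (adjusted p = 0.0143). Untreated, Samhd1 was higher in knockout cells by 0.86 ± 0.21 (adjusted p = 0.00407). That difference was 0.46 without untreated knockout arrays 2 and 3, and it was then not called. It passed in the other 20 of 21 alternatives. Each of those 20 kept at least 1 of these arrays, so they could not show its size without them.

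**Figure D2:**
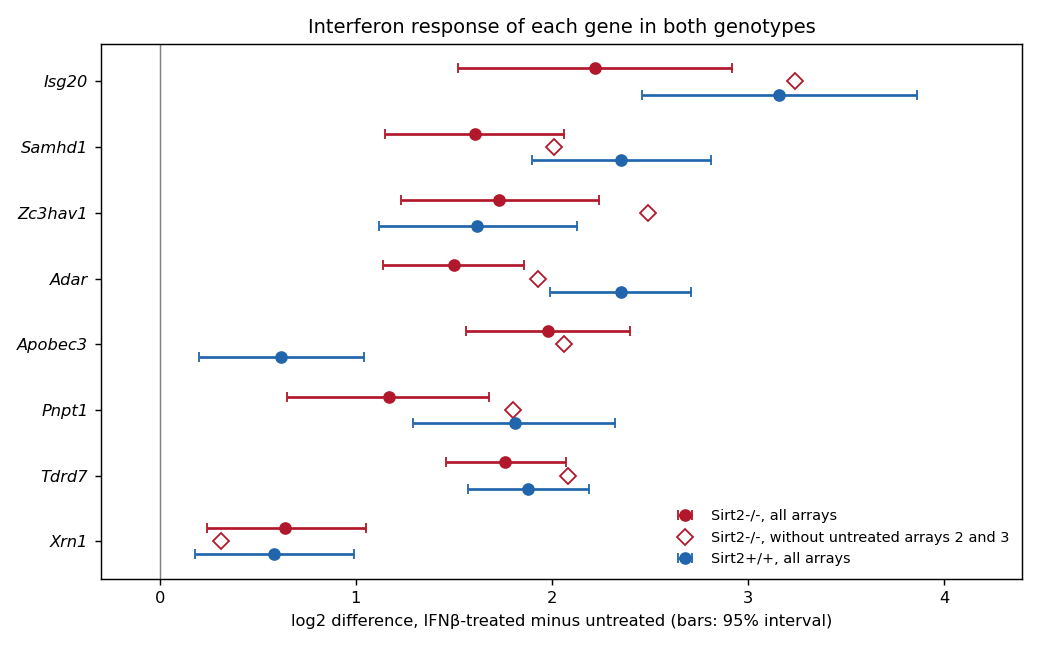
Log2 difference between IFNβ-treated and untreated cells (horizontal axis) for the 8 genes, with 95% intervals of the fit over all arrays and, as open diamonds without an interval, the knockout value without untreated arrays 2 and 3. Apobec3 stands apart with 1.98 in knockout against 0.62 in wild-type cells, and the diamonds of Isg20, Pnpt1 and Zc3hav1 lie well above their knockout points.

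Apobec3, the cytidine deaminase gene of mice that restricts retroviruses, was the member with the clearest genotype difference. Its kept probe read 7.72, 6.97 and 7.27 in treated knockout cells and 5.26, 5.11 and 5.65 in untreated ones. In wild-type cells it read 5.66, 5.54 and 5.54 with IFNβ and 4.96, 5.25 and 4.68 without. The 3 treated knockout arrays stood above all other arrays, and the treated wild-type arrays overlapped with the untreated knockout ones. The rise was 1.98 ± 0.19 in knockout cells (adjusted p = 2.73e-05), a 3.95-fold change and 2.06 without untreated knockout arrays 2 and 3, while the wild-type difference of 0.62 ± 0.19 missed the threshold (adjusted p = 0.0523). In untreated wild-type cells the probe was detected on 2 of 3 arrays. The wild-type difference passed in 7 of 20 alternatives, with adjusted p over 0.026 to 0.245.

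Under interferon, Apobec3 was higher in knockout than in wild-type cells by 1.74 ± 0.19 (adjusted p = 7.99e-06), a 3.34-fold difference, and it kept this call in all 20 alternatives. Those that left out only untreated arrays could not change the size of this difference. Untreated, the difference was 0.37 (adjusted p = 0.126). The gap between the responses was 1.36 ± 0.27, with a 95% interval of 0.77 to 1.96 and an unadjusted p of 0.000266. Its adjusted p was 0.0513, just above the threshold. It passed in 7 of 19 alternatives, with adjusted p over 0.0239 to 0.152, including those without untreated knockout array 1 or 3, treated knockout array 2 or untreated wild-type array 3. Without untreated knockout arrays 2 and 3 the gap was 1.44 (adjusted p = 0.13), and those arrays read 5.11 and 5.65, on either side of the 5.26 of array 1. Without background correction the difference under interferon was 0.86 and the gap 0.74 (adjusted p = 0.0239). The second Apobec3 probe was detected on no array, so a single probe carries these values.

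Adar encodes the enzyme that converts adenosine to inosine in double-stranded RNA, and is known for a longer isoform from an interferon-inducible promoter beside a constitutive shorter one. Its 5 probes were all kept, and all 5 rose in both genotypes. The brightest probe, ILMN_2489167, read 9.85, 9.74 and 9.77 in treated knockout cells and 7.86, 8.36 and 8.65 in untreated ones. In wild-type cells it read 10.36, 10.11 and 10.32 with IFNβ and 8.07, 7.96 and 7.71 without. All treated wild-type arrays stood above all treated knockout arrays on this probe. It rose by 1.50 ± 0.17 in knockout cells (adjusted p = 7.53e-05) and by 2.35 ± 0.17 in wild-type cells (adjusted p = 1.02e-06), and the gap of -0.85 ± 0.24 did not pass (adjusted p = 0.215). The knockout rise was 1.93 without untreated knockout arrays 2 and 3. The gap was -1.06 without untreated knockout array 1 (adjusted p = 0.00857) and -0.42 without arrays 2 and 3 (adjusted p = 0.807), with adjusted p over 0.00857 to 0.918 in 20 alternatives.

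Under interferon the probes of Adar did not point the same way between the genotypes. There, the brightest probe was lower in knockout cells, at a difference of -0.48 ± 0.17 (adjusted p = 0.0295). The next, ILMN_3021272, read 9.59, 9.04 and 9.20 in treated knockout cells against 9.83, 9.61 and 9.76 in treated wild-type cells, a difference of -0.46 (adjusted p = 0.0657). The other 3 probes were higher in knockout cells. ILMN_2704372 read 9.30, 9.42 and 9.12 in treated knockout cells against 8.55, 8.50 and 8.35 in treated wild-type cells, a difference of 0.81 (adjusted p = 0.014). ILMN_3093622 read 9.41, 8.97 and 9.02 in treated knockout cells against 8.70, 8.16 and 8.37 in treated wild-type cells, a difference of 0.72 (adjusted p = 0.0385). ILMN_2441249 read 6.37, 6.27 and 6.17 in the knockout group against 5.47, 5.28 and 5.24 in the wild-type group, a difference of 0.94 (adjusted p = 3.72e-06). In each of the 5 probes the treated groups of the 2 genotypes did not overlap. On ILMN_3021272 the margin was narrow, with 9.59 on the highest knockout array and 9.61 on the lowest wild-type array.

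Untreated, the first 4 of these probes had differences of 0.37, 0.27, 0.89 and 1.22 in the order above, all toward knockout cells. ILMN_2704372 (adjusted p = 0.00814) and ILMN_3093622 (adjusted p = 0.00183) passed. ILMN_2441249 also passed (adjusted p = 0.0424) but was not well above background in either untreated group, so no size is given. Without untreated knockout arrays 2 and 3 the first 4 differences were -0.05, -0.20, 0.17 and 0.62, and none of the 5 passed, with adjusted p of 0.0545 and above.

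The 5 probes also fell apart in the size of the response. ILMN_2704372 and ILMN_3093622 rose by 2.99 and 2.75 in knockout cells and by 3.07 and 3.25 in wild-type cells. Without untreated knockout arrays 2 and 3 their knockout rises were 3.71 and 3.35, above the wild-type values. ILMN_2489167 and ILMN_3021272 rose by 1.50 and 1.60 in knockout cells and by 2.35 and 2.32 in wild-type cells. Without untreated knockout arrays 2 and 3 their knockout rises were 1.93 and 2.07, still below the wild-type values. ILMN_2441249 was not well above background on any untreated array, so its rise is a bound, at least 2.55-fold in knockout cells (adjusted p = 3.02e-06) and at least 1.32-fold in wild-type cells (adjusted p = 2.04e-05). That probe was kept only through the treated groups, so its interferon tests are not independent of the filter. The sources used here do not say which stretch of the transcripts each probe reads, so no probe was assigned to an isoform. With the mean of the 5 probes in place of the brightest, the difference under interferon was 0.31 (adjusted p = 0.155). The lower value on the brightest probe also missed the threshold without treated knockout array 2 or 3 or treated wild-type array 1 or 3, with adjusted p of 0.0776, 0.0687, 0.0918 and 0.0783.

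**Figure D3:**
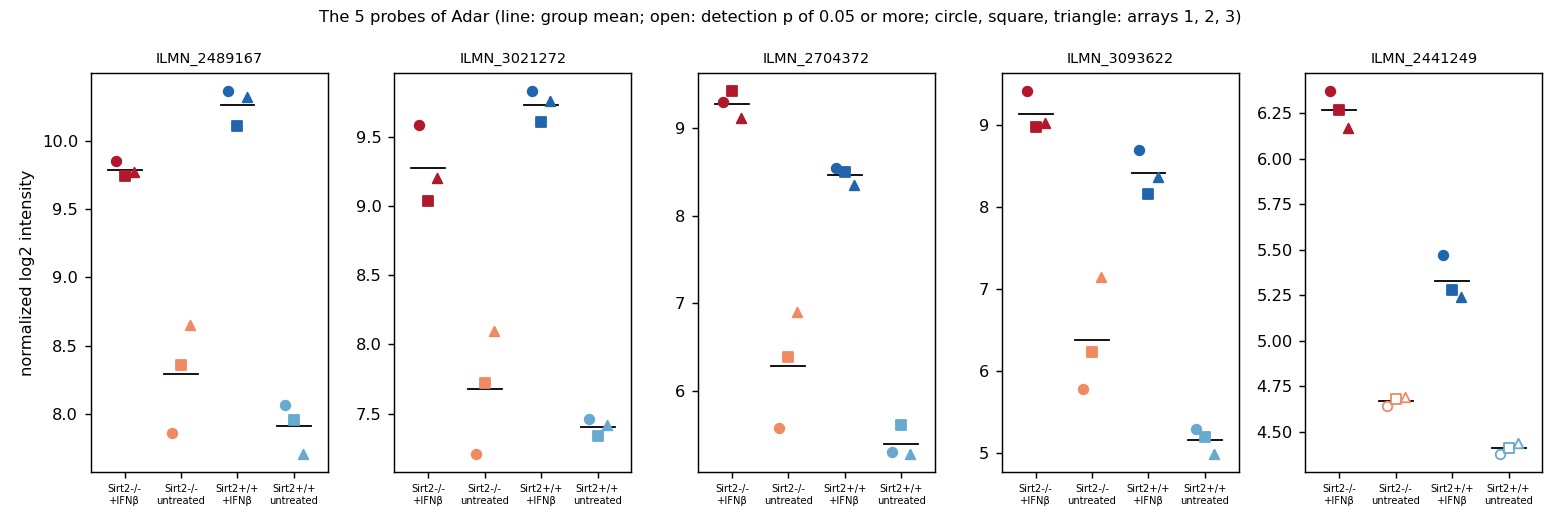
Normalized log2 intensity (vertical axes, each probe on its own scale) of the 5 Adar probes on every array by group, with the group mean as a line and arrays with a detection p of 0.05 or more as open symbols. Under IFNβ the knockout arrays lie below the wild-type ones for the 2 probes on the left and above them for the 3 on the right, with differences of -0.48, -0.46, 0.81, 0.72 and 0.94.

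Between the genotypes few of the 8 genes were called with all arrays. Under interferon 1 of 8 was higher (Apobec3) and 1 lower (Adar, by its brightest probe) in knockout cells, where 27.1% of all genes were called higher and 23.2% lower. By probe, 5 of 15 were higher, a dimmer Samhd1 probe among them, and 1 lower, where 26.6% and 21.7% of all kept probes were. Untreated, 1 of 8 was higher (Samhd1) and 0 lower, against 27.1% and 24.2% of all genes. By probe, 5 of 15 were higher untreated, 2 of Samhd1 and 3 of Adar, and 0 lower, where 26.3% higher and 22.6% lower were called over all kept probes. The median difference of the 8 genes was 0.02 under interferon and 0.37 untreated, and 0.06 and 0.05 over all genes. Without untreated knockout arrays 2 and 3 the untreated median was -0.06, Samhd1 was no longer called, and Zc3hav1 was called lower at -0.59 (adjusted p = 0.0109). Without array 1 of that group instead, 5 of the 8 genes were called higher untreated, against 23.9% of all genes, and 2 of 8 under interferon, against 27.5%. In the difference of the responses limma called 0 of 8 genes in either direction, against 0.115% of all genes higher and 0.388% lower. At an unadjusted p under 0.05, which 3 of 8 genes met, the gap was negative for Samhd1 and Adar by their brightest probes and positive for Apobec3. The share of all genes at this unadjusted threshold was not counted, here or below, so these counts have no background beside them. Without untreated knockout arrays 2 and 3 the gaps were -0.34 for Samhd1, -0.42 for Adar and 1.44 for Apobec3.

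Across the 12 arrays the 28 pairs of members correlated at Pearson's r of 0.59 to 0.98, and all these values share the step between untreated and treated arrays. Of 9723 named genes, the levels of Isg20 followed most closely those of Irf7 and Trim21 (r = 0.995 each), both known interferon-induced genes. For Samhd1 they were Nod1 (0.995) and Daxx (0.993). Zc3hav1 went with Parp10 (0.982) and Tap1 (0.978), and Adar with Tcirg1 (0.993) and Trim34a (0.992). Pnpt1 went with Ifi204 (0.991) and Tent5a (0.989), and Tdrd7 with Spsb1 (0.991) and Hmox1 (0.989). The closest to Apobec3, Cnksr1 and Insl6 (0.985 each), share its high level in treated knockout arrays. Xrn1 had no close partner, with Unc5c at 0.848 and Nmnat2 at 0.834. These values describe 12 arrays of 4 groups and carry no test.

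The wider machinery was followed with 102 related genes of RNA decay, nucleases, editing and dNTP supply, of which 96 are on the array and 82 were tested. After IFNβ, 8 of 82 (9.76%) were higher in knockout cells and 8 of 82 in wild-type cells, and these were the same 8 genes. Over all genes 4.30% and 6.27% were higher. Their median change was -0.06 in knockout cells and -0.04 in wild-type cells, at the level of all genes. Apobec1, a cytidine deaminase known for editing apolipoprotein B RNA, rose by 3.11 ± 0.27 in knockout cells (adjusted p = 1.41e-05) and 3.63 ± 0.27 in wild-type cells (adjusted p = 1.47e-06). Trex1, which degrades DNA in the cytosol, rose by 2.98 ± 0.31 in knockout cells (adjusted p = 5.26e-05) and 3.99 ± 0.31 in wild-type cells (adjusted p = 2.05e-06). Mov10, an antiviral RNA helicase, rose by 2.12 ± 0.19 in knockout cells (adjusted p = 1.55e-05) and 2.51 ± 0.19 in wild-type cells (adjusted p = 1.6e-06). For Apobec1, Trex1 and Mov10 the knockout rises were 3.85, 3.92 and 2.46 without untreated knockout arrays 2 and 3. Their gaps to the wild-type rises were then 0.21, -0.07 and -0.05. The other 5, named after their values were seen, were the ZAP cofactor Trim25 (2.10 in knockout and 2.13 in wild-type cells), the endonuclease gene N4bp1 (1.46 and 1.82), the decapping enzyme gene Dcp2 (1.41 and 2.01), the decapping exonuclease gene Dxo (0.50 and 0.59) and the deadenylase subunit gene Cnot6l (0.42 and 0.61). By class they were 3 of 11 other antiviral nucleases and helicases, 2 of 11 genes of decapping and decay from the 5′ end, 1 of 12 deadenylation genes, 1 of 4 ZAP cofactors and 1 of 2 other editing genes. In knockout cells 6 of the 82 were called higher without untreated knockout arrays 2 and 3, against 3.37% of all genes.

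Of the 82 related genes, 1 (1.22%) was lower after IFNβ in knockout cells and 4 (4.88%) in wild-type cells. Over all genes the shares were 2.31% and 7.57%. The knockout gene was the decapping activator gene Ddx6, at -0.60 ± 0.17 (adjusted p = 0.0476). Its change was -0.81 without untreated knockout arrays 2 and 3, where it missed the threshold. In wild-type cells Ddx6 changed by -0.53 and was not called. In wild-type cells 4 were lower, Adarb1 at -0.46, Dcp1a at -0.39, Tk1 at -0.39 and Tdrkh at -0.37, the last named after its value was seen. Their knockout changes, none of them called, were -0.43, -0.08, -0.16 and -0.10 in the same order. Leaving out 1 array at a time gave 0 to 2 lower genes in knockout cells and 0 to 4 in wild-type cells, so the counts depend on the arrays included. None of the 17 tested genes of the RNA exosome and its cofactors, the main machine for decay from the 3′ end, passed in either genotype, nor did any of 5 genes of nonsense-mediated decay, 5 relatives of Isg20 or 4 genes of mitochondrial RNA turnover. At an unadjusted p under 0.05, 2 of the 17 exosome genes passed in knockout and 1 in wild-type cells, as did 1 and 0 of nonsense-mediated decay, 1 and 1 of the Isg20 relatives and 0 and 0 of mitochondrial turnover. The interferon differences of the exosome genes lay between -0.32 and 0.44 in knockout and between -0.26 and 0.29 in wild-type cells.

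**Figure D4:**
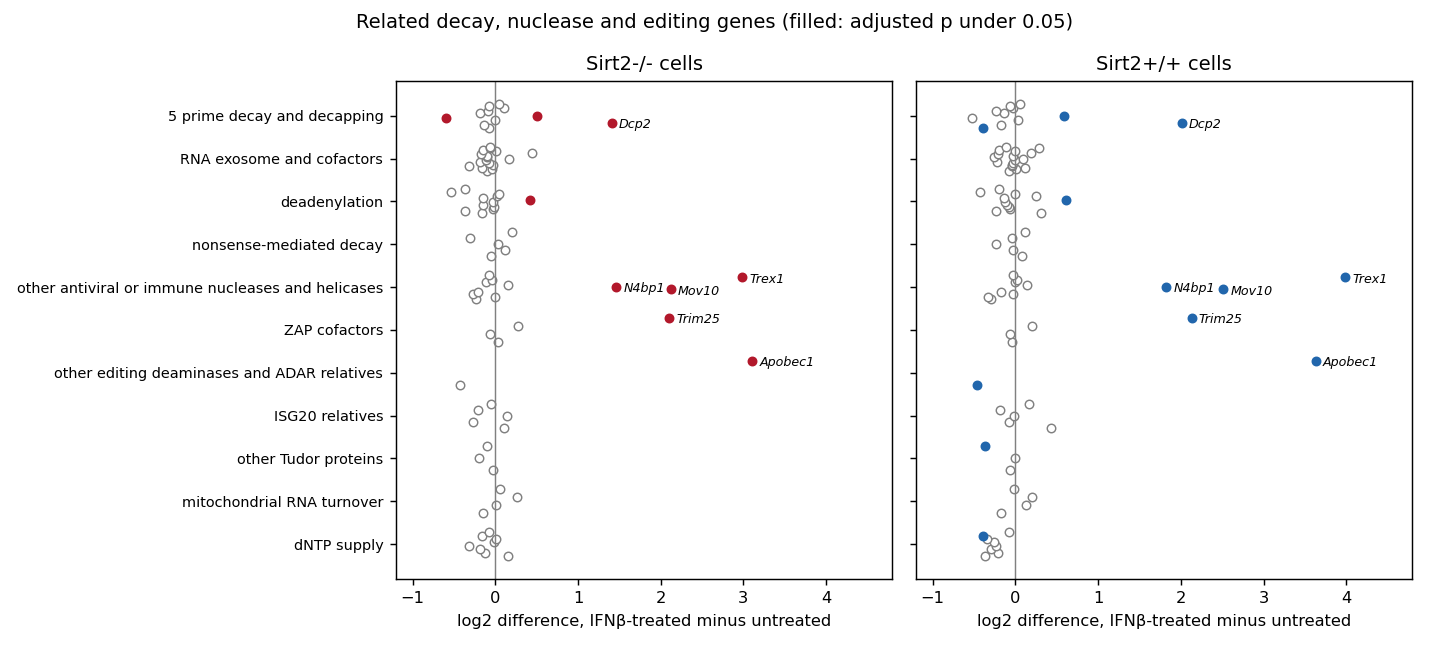
Log2 difference between IFNβ-treated and untreated cells (horizontal axes) of the 82 tested related genes by class (rows), in knockout cells on the left and wild-type cells on the right, filled where the adjusted p is under 0.05. Most genes lie near 0, and Apobec1, Trex1, Mov10, Trim25, N4bp1 and Dcp2 lie above 1 in both panels.

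As over all genes, more of the related genes were called between the genotypes than with interferon. Under interferon 33 of 82 (40.2%) were higher and 13 (15.9%) lower in knockout cells, with a median of 0.28, and untreated 36 (43.9%) were higher and 10 (12.2%) lower, with a median of 0.29. These shares stand beside the 27.1% of all genes higher in either state, and the 23.2% lower under interferon and 24.2% lower untreated. Without treated wild-type array 3, 8 were lower under interferon, beside 2488 of all 12128 genes. The untreated counts were 22 and 5 without untreated knockout arrays 2 and 3, and 19.5% of all genes were then higher. Of the 8 genes of dNTP supply, which make the nucleotides that Samhd1 breaks down, 7 were higher in knockout cells in either state, and 6 untreated without the 2 arrays. Dut, which removes dUTP from the pool, was higher by 1.71 ± 0.14 under interferon (adjusted p = 5.98e-07) and 1.62 ± 0.14 untreated (adjusted p = 1.04e-06). Rrm2, a subunit of ribonucleotide reductase, was higher by 1.11 ± 0.10 under interferon (adjusted p = 9.44e-07), and the kinase gene Dck by 1.06 ± 0.17 (adjusted p = 0.000202).

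Among other antiviral or immune nucleases and helicases, 7 of 11 were higher in knockout cells under interferon and 8 of 11 untreated, and 3 untreated without the 2 arrays. Untreated, N4bp1 was higher by 1.21 ± 0.12 (adjusted p = 3.38e-06) and Rnaseh2a, a subunit of the enzyme that removes RNA from RNA-DNA hybrids, by 1.02 ± 0.15 (adjusted p = 7.47e-05). Of 12 deadenylation genes, 6 were lower and 2 higher in knockout cells under interferon, where 23.2% of all genes were lower. Untreated, 4 were lower and 2 higher, and 1 lower and 2 higher without the 2 arrays. Under interferon, Btg1 stood lower at -0.94 ± 0.13 (adjusted p = 5.33e-05) and Tob1 at -0.64 ± 0.20 (adjusted p = 0.0153), both known as adaptors of the CCR4-NOT deadenylase. Hbs1l, a ribosome-rescue gene counted here with the exosome cofactors, was lower at -0.73 ± 0.09 under interferon (adjusted p = 2.65e-05) and at -0.75 ± 0.09 untreated (adjusted p = 2.32e-05). All 3 tested relatives of Tdrd7 were lower in knockout cells in either state, untreated Tdrkh at -0.72 ± 0.11 (adjusted p = 0.00016), and 2 of 3 untreated without the 2 arrays. Rexo1, a relative of Isg20, was lower untreated at -0.56 ± 0.12 (adjusted p = 0.00192). In the difference of the responses limma called 0 of the 82 genes, with a median of -0.01 and 3 genes at an unadjusted p under 0.05. Without untreated knockout array 1 it called 1, as lower, against 1.27% of all genes.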

How the data were processed

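RNA of 12 samples was measured on Illumina bead arrays, from 150 ng of total RNA each per the labels' protocols. The authors deposited 1 linear intensity per probe and array with a detection p-value, per the file headers, and a further table of log2 values. The deposited log2 values equalled the quantile-normalized log2 of the intensities within 0.00183, so no background had been subtracted from them. The sources used here name no scanner software.

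The intensities were corrected with normexp, taking the negative controls' mean and SD from the detection p-values, given an offset of 16, quantile-normalized and log2-transformed (neqc, limma 3.58.1, R 4.3.3). A probe was kept where a group had it detected (p under 0.05) on each of its 3 arrays (17837 of 45281 probes). The brightest kept probe stood for a gene, and unnamed probes for themselves, which gave 12128 features, of which 9723 have a symbol. Of all probes, 34885 carry 1 symbol, 18 several and 10378 none, and a RefSeq table changed 0 symbols. One limma fit with a mean per group over the 12 arrays gave 5 two-sided contrasts, adjusted by the Benjamini-Hochberg method over all features. Folds against a group not well above background are lower bounds against the dimmest detected signal, and are not confidence limits. The script was tested on simulated data. A further promoter motif that was searched is not reported here.

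The text names all 8 members, the 3 related genes with the largest change past the threshold in each direction of each contrast, and for each member the 2 genes of closest pattern. The members, the related genes and the markers were chosen with earlier results of these data known. Alternatives were the background correction, median scaling, no filter, other probes, fits of the compared groups alone, a replicate block, array weights, leaving out each array, and leaving out untreated knockout arrays 2 and 3. Replicate numbers did not pair the samples: residuals of same-numbered arrays correlated at -0.12 to 0.18 over 18 pairs, 4 of them over 0.1. The number of arrays limits the precision.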

Additional observations from a re-analysis of the deposited data

How the results depend on the processing

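Of 807 repeats of the 40 member differences under 21 alternative settings, 733 kept direction and side of the threshold and 28 changed sign. Without a change of sign, 9 lost the call and 37 gained one. A repeat that changed sign and also crossed the threshold was counted only as a change of sign. The cause of these changes was not tested. Leaving out an array outside a comparison could not change the size of that comparison, so its direction was then fixed in advance. The rise with IFNβ of Isg20, Samhd1, Adar, Pnpt1 and Tdrd7 in both genotypes, of Apobec3 in knockout cells, and the higher Apobec3 under interferon in knockout cells passed in every alternative run. Zc3hav1 lost its rise in both genotypes with its next-best probe. A paired fit with the replicate block called 7 members higher with IFNβ in knockout and 6 in wild-type cells, 1 higher and 1 lower between genotypes under interferon, 1 higher untreated and 0 in the difference of the responses, and it changed no member's call.

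Without background correction the related genes lower with IFNβ in knockout cells numbered 2, and 1 member passed as higher in the difference of the responses. Over all 12128 genes, 360 and 25 were called in these ways. The difference with IFNβ was then 0.93 in knockout and 0.19 in wild-type cells for Apobec3, 1.57 and 2.20 for Isg20, 0.94 and 0.84 for Zc3hav1, 0.67 and 0.98 for Pnpt1, and 0.20 and 0.18 for Xrn1. With median scaling 8 of 82 related genes were lower with IFNβ in knockout cells, beside 886 of all 12128 genes. Untreated, 3 of 8 members were higher in knockout cells, beside 3619 of all genes, and Tdrd7 was 0.10. With no filter on dim probes, 2 related genes were lower in wild-type cells with IFNβ and 0 members lower in knockout cells under interferon. Of the 29453 features then tested, 761 and 2743 were called in these ways. The next-best probe gave Zc3hav1 a difference of the responses of -0.18. The mean of kept probes gave -0.03 there, 0.31 for Adar under interferon, 0 members lower under interferon, 2 higher untreated and 1 higher in the difference of the responses. The counts over all 12128 genes were 2849, 3440 and 15 in the same order. Fitting only the groups compared left 1 related gene lower with IFNβ in wild-type cells, beside 678 of all 12128 genes.

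Without untreated knockout arrays 2 and 3, untreated differences were -0.37 for Isg20, -0.59 for Zc3hav1, -0.05 for Adar and -0.06 for Pnpt1, with 0 members higher and 1 lower, and 22 related genes higher and 5 lower. The differences of the responses were 0.09 for Isg20, 0.20 for Tdrd7 and -0.27 for Xrn1, and related genes lower with IFNβ numbered 0 in knockout and 2 in wild-type cells. Array weights gave 3 related genes lower in knockout cells with IFNβ, 4 members higher untreated, and 1 higher and 1 lower in the difference of the responses. The counts over all 12128 genes were 433, 3388, 26 and 89 in the same order. With these weights, untreated Tdrd7 was 0.06 and Xrn1 -0.03, and the Zc3hav1 difference of the responses was -0.03.

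Leaving out each array in turn, related genes lower with IFNβ ranged over 0 to 2 in knockout and 0 to 4 in wild-type cells, and related genes lower in knockout cells under interferon over 8 to 14 (8 without treated wild-type array 3). The counts over all 12128 genes ranged over 118 to 330, 519 to 936 and 2482 to 2899 in the same order. Members higher in knockout cells ranged over 1 to 2 under interferon and 1 to 5 untreated (2 and 5 without untreated knockout array 1), and members lower under interferon over 0 to 1. Over all 12128 genes, 2854 to 3422 were higher under interferon and 2894 to 3300 untreated. In the difference of the responses 0 to 1 members were higher, 0 to 2 lower (2 without untreated knockout array 1) and 0 to 1 related genes lower. Over all 12128 genes, 7 to 21 were higher and 31 to 154 lower there. Untreated differences ranged over -0.17 to 0.15 for Tdrd7, -0.13 to 0.12 for Xrn1 and -0.02 to 0.55 for Zc3hav1. Under interferon they ranged over -0.04 to 0.21 for Samhd1 and -0.10 to 0.31 for Xrn1. Differences of the responses ranged over -0.27 to 0.30 for Zc3hav1, -0.14 to 0.27 for Xrn1 and -0.27 to 0.05 for Tdrd7. Signals near background limit Xrn1, Apobec3 in wild-type cells, the dimmer probes of Samhd1 and the dimmest probes of Zc3hav1 and Adar.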
